A study of Mus musculus with 47 samples.

Results

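Enzymes that convert steroid hormones in the liver include the aldo-keto reductases of the Akr1c family and the short-chain hydroxysteroid dehydrogenases. Of these 2 kinds, 8 genes were followed in mouse liver after long-term use of sunscreen with or without UVR. They were taken as every probeset of the value table whose platform annotation gave 1 of the 8 gene symbols, and each gene had 1 probeset, so 8 of the 6889 genes with a single symbol are described. The 6 aldo-keto reductases were Akr1c6, Akr1c12, Akr1c13, Akr1c14, Akr1c19 and Akr1c20, and the 2 dehydrogenases were Hsd17b6 and Hsd11b1. RNA came from livers of female hairless SKH:QS mice that were immune-competent and entered the study at 8 weeks of age, with 47 Affymetrix Mouse Gene 1.0 ST arrays and 1 mouse on each. The 4 groups given UVR were Organic + UVR, TiO2 + UVR, ZnO + UVR and Control + UVR, and the 4 groups without it were Organic-UVR, TiO2-UVR, ZnO-UVR and Control-UVR. Each group had 6 mice, but 5 for ZnO + UVR. The organic product held organic UVR filters only, the TiO2 product held TiO2 nanoparticles together with organic filters, the ZnO product held ZnO nanoparticles as its only UVR filter, and Control mice had no sunscreen. Each of the 30 treatments over 36 weeks delivered 29 kJ/m2 to the irradiated groups, and all mice wore collars and were washed afterwards. Housing was individual by the labels but 1 cage for each group by the methods. If the methods hold, effects of cage and of treatment cannot be told apart.

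Aldo-keto reductases of the Akr1c family use NADPH or NADH to interconvert keto and hydroxy groups at several positions of the steroid nucleus, which inactivates or reactivates androgens, progestins and glucocorticoids. Hydroxysteroid dehydrogenases of the short-chain family do the same work with a different protein fold. The mouse liver is rich in both kinds, and several are known to differ between male and female livers.

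The 6 Akr1c genes lay together on chromosome 13 (GRCm38.p6, chr13:4048991-4523354), Hsd17b6 on chromosome 10 (chr10:127990931-128007648) and Hsd11b1 on chromosome 1 (chr1:193221640-193264045). Promoter sequences were found in RefSeq for 7 of the 8 members, all but Akr1c20. Each window held the 250 bases before the start site of that table, which is not always the outer end of the gene as annotated. None of the window lay within the annotated gene for Akr1c12, 19 bases did for Akr1c13, 32 for Akr1c6, 37 for Hsd17b6 and 237 for Akr1c19, and the whole window did for Akr1c14 and Hsd11b1. Akr1c12 and Akr1c13, whose levels varied most alike over arrays, are shown because their windows were almost the same. Of 246 aligned bases in the 250 before each start site, 235 were identical (95.5%). Capitals mark the 11 substituted positions in each and the 1 extra base of Akr1c13. Akr1c12 is read from the minus strand (chr13:4279400-4279649) and Akr1c13 from the plus strand (chr13:4190937-4191186), 5′ to 3′.
Akr1c12: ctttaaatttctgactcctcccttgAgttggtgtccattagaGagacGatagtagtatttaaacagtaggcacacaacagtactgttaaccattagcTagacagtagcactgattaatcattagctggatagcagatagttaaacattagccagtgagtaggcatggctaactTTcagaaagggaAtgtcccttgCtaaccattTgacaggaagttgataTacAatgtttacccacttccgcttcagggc
Akr1c13: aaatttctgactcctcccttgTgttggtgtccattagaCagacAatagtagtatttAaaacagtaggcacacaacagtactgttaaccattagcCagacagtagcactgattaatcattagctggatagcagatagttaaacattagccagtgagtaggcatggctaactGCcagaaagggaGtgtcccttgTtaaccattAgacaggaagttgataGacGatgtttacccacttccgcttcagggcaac
The array's probe sequences were not used here. Whether any probe matches both genes was not tested, so the values of Akr1c12 and Akr1c13 are uncertain as separate measurements. The window of Akr1c19, the member whose group means lay farthest apart, aligned to that of Akr1c13 over 188 bases with 77.1% identical. It is shown with capitals on the 2 aligned runs of at least 8 bases that it shares with Akr1c13 (plus strand, chr13:4233490-4233739).
Akr1c19: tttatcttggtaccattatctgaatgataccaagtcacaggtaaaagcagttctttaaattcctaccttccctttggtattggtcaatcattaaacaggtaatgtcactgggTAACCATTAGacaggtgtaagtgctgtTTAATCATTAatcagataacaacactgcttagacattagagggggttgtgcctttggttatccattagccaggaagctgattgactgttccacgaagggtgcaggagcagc
In all, 6 short patterns were searched on both strands of the same 250 bases in the 7 members and in the windows of 32851 mouse promoter entries. The clock E-box CACGTG (6.02% of all promoters), the D-box TTATGTAA (0.819%) and AGAACA, a single arm of the glucocorticoid receptor element (16.1%), were in none of the 7. The pattern CCAAT (33.8%) was in 5 members, TATAAA (12.4%) in Akr1c6 and the antioxidant element TGACNNNGC (10.2%) in Hsd11b1. A match describes letters only.

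The labels name liver tissue, and the arrays carried hepatocyte RNA. Of 14 hepatocyte markers 4 were measured (Apob, Apoh, Arg1 and Cps1), none was called in any comparison, and their mean lay between 11.61 and 12.39 log2 units over arrays. Organic-UVR replicate 1 stood apart from the other arrays. Regressed on the average array, its values rose with a slope of 0.77, while the other 46 arrays had slopes of 0.90 to 1.07. It also held the lowest hepatocyte marker mean. It was the lowest of the 47 arrays for 6 of the 8 members. Values of the same fit without this array stand beside the Organic-UVR differences below, several of which rest on it. Of 3 measured sinusoidal endothelial markers 1 was called. Pecam1 differed by -0.66 log2 units in Organic + UVR against Control-UVR (limma adjusted p 0.072). In the TiO2 and organic groups against the Control and ZnO groups it was -0.28 (adjusted p 0.0831, and 0.128 without Organic-UVR replicate 1). Krt7, a bile duct marker, was 0.37 higher in Organic + UVR against Control-UVR (adjusted p 0.095). No measured stellate, Kupffer or lymphocyte marker was called. The part of these markers was not tested. Over bulk liver, fewer cells of a type and less RNA per cell cannot be told apart.

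None of the 8 members was higher or lower in any group of mice at the threshold used, a limma adjusted p (Benjamini-Hochberg over 9815 transcripts) under 0.1. This held in 20 comparisons, hence in 0 of 160 tests. An unadjusted p under 0.05 was found in 9 of the 160, or 5.62%, against 7.99% over all transcripts and comparisons. Without Organic-UVR replicate 1 it was 17 of the 160, or 10.6%, against 8.90%, with none called. An F test over the 8 groups called 0 of 8 members, against 1.93% of all transcripts, and its smallest adjusted p was 0.571, for Akr1c19. The intervals show what size of change these arrays leave room for: 152 of the 160 95% intervals lay within 1 log2 unit of 0. Against Control-UVR, their half-widths ran from 0.18 for Akr1c6 to 0.58 for Akr1c19.

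**Figure D1:**
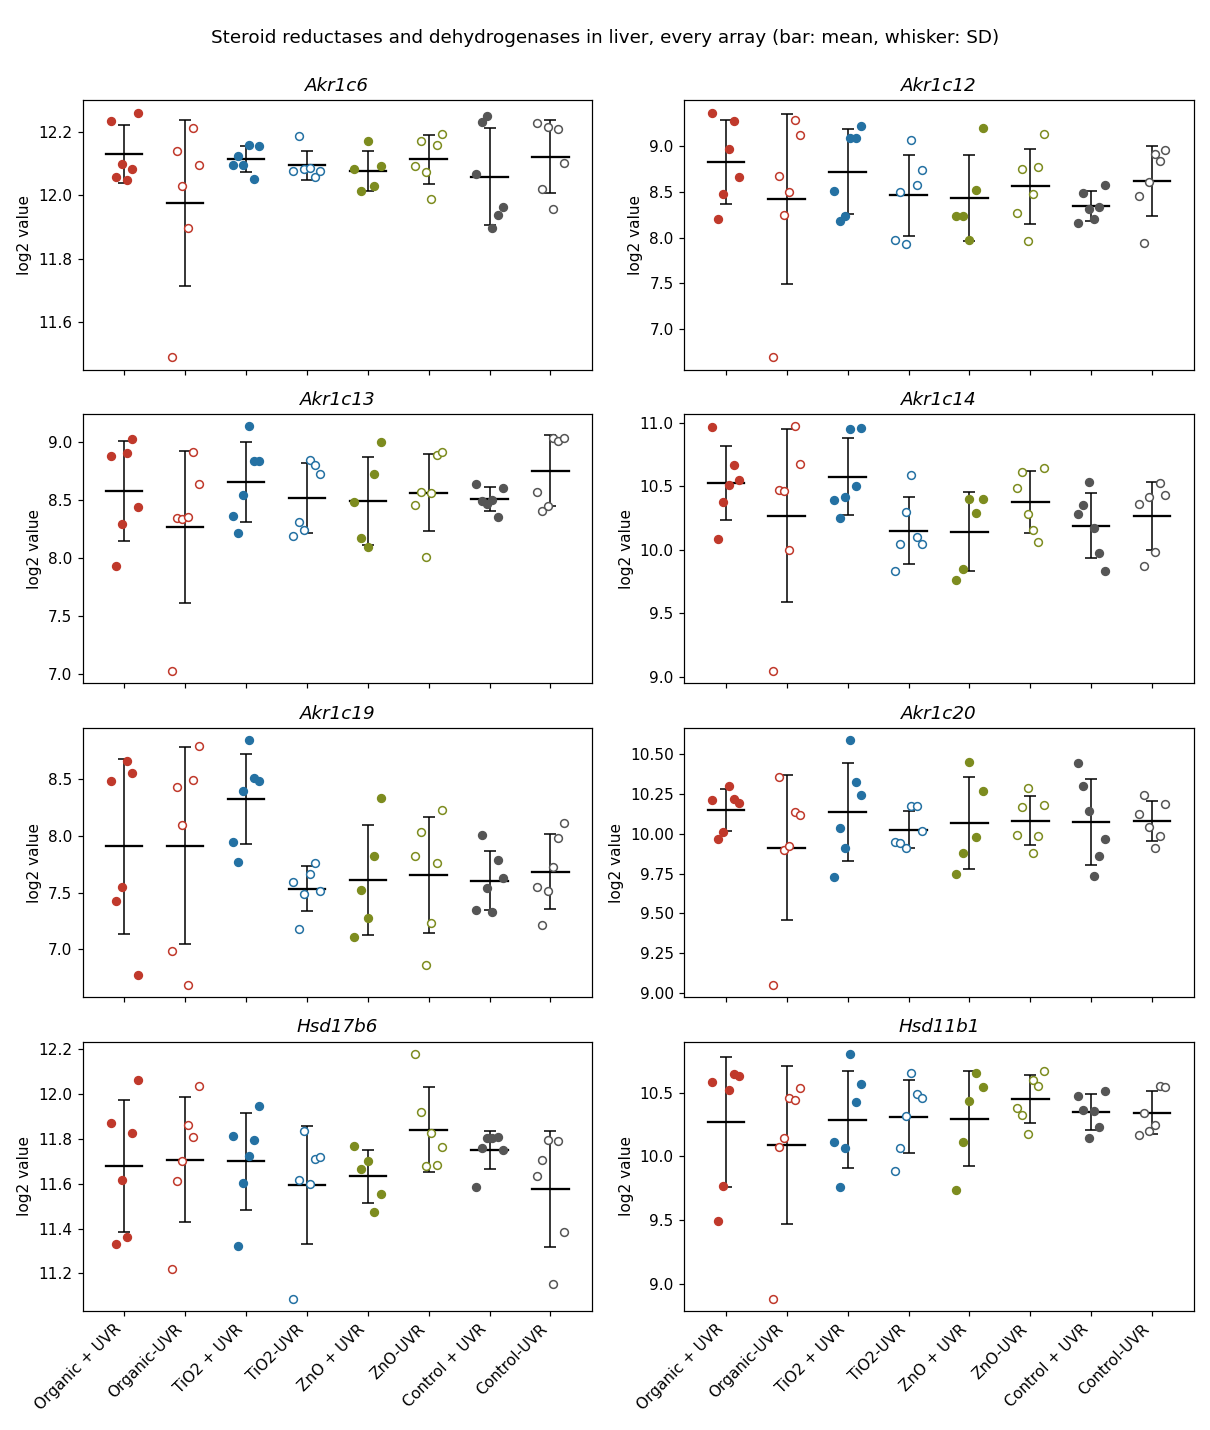
Log2 values of the 8 members on every array (y axis) by group (x axis), with filled points for groups given UVR, open points for groups without it, a bar for the mean and whiskers for the SD. Organic-UVR replicate 1 is the lowest point of 6 panels, and the means of all groups lie within 0.79 log2 units for Akr1c19 and within 0.48 or less for the other members.

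Against Control-UVR, the count was 0 of 8 in each of the 7 treated groups. The share of all transcripts called was 1.65% in Organic + UVR, 3.27% in Organic-UVR, 0.693% in TiO2 + UVR and 0.0509% in Control + UVR. In TiO2-UVR and both ZnO groups it was 0%. A count of 0 of 8 is therefore near the background in each. The 7 comparisons share the Control-UVR arrays. Without Organic-UVR replicate 1 no member was called either, and the share of transcripts was 5.88% in Organic + UVR, 0.672% in Organic-UVR, 1.18% in TiO2 + UVR and 0.958% in Control + UVR. The median of the 8 differences ran from -0.16 in Organic-UVR to 0.09 in Organic + UVR, and the median of all transcripts in those comparisons was 0.03 in both. Without that array the Organic-UVR median turned to 0.05. The member differences themselves spanned -0.48 for Akr1c13 in Organic-UVR to 0.64 for Akr1c19 in TiO2 + UVR.

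**Figure D2:**
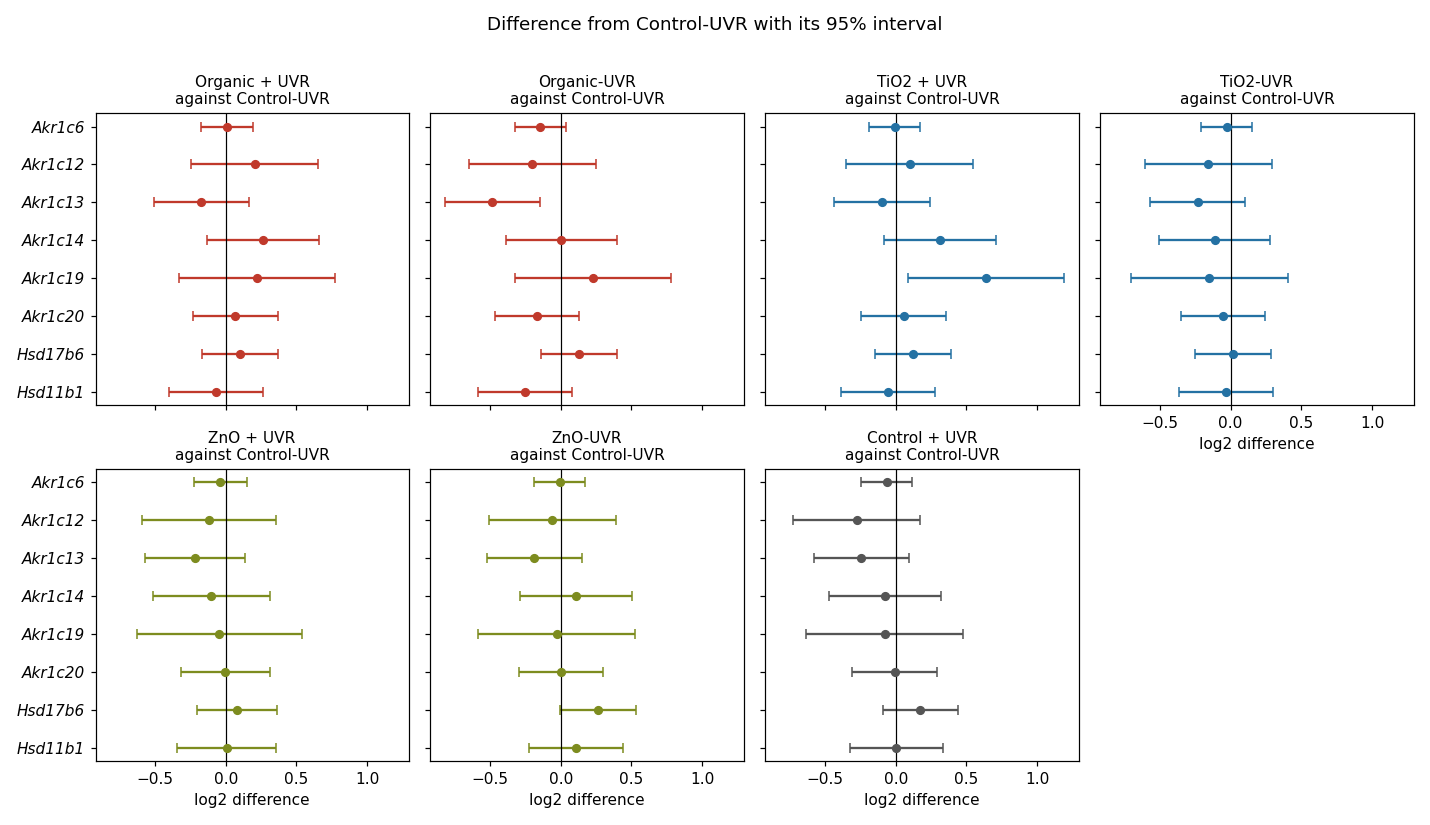
Log2 difference of each member (y axis) from Control-UVR (x axis, log2 units) in the 7 treated groups, as points with 95% intervals from the limma fit. Among the intervals, those of Akr1c13 in Organic-UVR and Akr1c19 in TiO2 + UVR leave out 0, and neither difference passed the adjusted threshold.

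Akr1c19, an aldo-keto reductase of the cluster, had the widest spread between groups. Its log2 value lay between 7.77 and 8.84 in TiO2 + UVR livers (median 8.44), against 7.18 to 7.76 in TiO2-UVR livers (median 7.55). The 6 irradiated livers were all above the 6 that were not, although the nearest values, 7.77 and 7.76, almost met. Such separation, in either direction, was seen for 0.734% of all transcripts in this comparison and for 1 of 8 members, and it did not occur in the other member comparisons between groups (1 of 136). The means were 8.32 ± 0.39 in TiO2 + UVR and 7.53 ± 0.20 in TiO2-UVR (SD, n = 6 each), a difference of 0.79 log2 units, or 1.73-fold (95% interval 1.18 to 2.54). Its limma p of 0.0064 became 0.346 after adjustment, with 0 of 8 members and 0.652% of transcripts called. Of 20 alternatives 1 passed the threshold, the fit of the compared arrays alone (adjusted p 0.019), and the adjusted p ran up to 0.765 over the 20, reached without TiO2 + UVR replicate 4.

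Against mice that had UVR with no sunscreen, Akr1c19 was 0.72 ± 0.27 log2 units higher in TiO2 + UVR (SE, adjusted p 0.365, 0.703% of transcripts called). Control + UVR livers lay between 7.33 and 8.01 with a median of 7.58, and 4 of the 6 TiO2 + UVR livers were above all of them. The difference of TiO2 + UVR from Control-UVR was 0.64 ± 0.27 (adjusted p 0.414), and 4 of 6 livers again lay above the whole Control-UVR range of 7.22 to 8.11. The interaction of TiO2 sunscreen with UVR, that is the UVR effect under TiO2 sunscreen minus that in Control mice, was 0.87 ± 0.39 (adjusted p 0.527, 0.173% called). These comparisons share the TiO2 + UVR arrays.

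Akr1c19 scattered most in the groups given the organic product, and the difference in spread was not tested. The 6 Organic + UVR livers lay between 6.77 and 8.66 (median 8.01), against 6.69 to 8.79 in Organic-UVR livers (median 8.26), and the ranges overlapped almost wholly. Their SDs were 0.77 in Organic + UVR and 0.87 in Organic-UVR (0.83 without replicate 1), against 0.26 in Control + UVR and 0.33 in Control-UVR. The other SDs were 0.39 in TiO2 + UVR, 0.20 in TiO2-UVR, 0.48 in ZnO + UVR and 0.51 in ZnO-UVR. ZnO + UVR livers held 7.11 to 8.33 (median 7.53) and ZnO-UVR livers 6.86 to 8.23 (median 7.79), which overlapped both Control groups.

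Clock genes changed in TiO2 + UVR against TiO2-UVR, and also in other comparisons. Of 6 clock genes measured 5 were called in TiO2 + UVR against TiO2-UVR, where 0.652% of all transcripts were called. Ciart, a repressor of the circadian clock, was 2.86 log2 units higher (adjusted p 0.00252), Tef was 1.03 and Per1 0.93 higher, and Npas2 fell by 2.12 and Nfil3 by 1.39. In Organic-UVR against TiO2-UVR, Ciart was 2.47 log2 units higher (limma adjusted p 0.0153) and Npas2 differed by -2.13. Akr1c19 differed there by 0.38 (adjusted p 0.780). Without Organic-UVR replicate 1 these differences were 2.94, -2.33 and 0.55. With array weights that of Akr1c19 was 0.78 (limma adjusted p 0.0505). Over the 47 arrays Akr1c19 and Ciart had a Pearson r of 0.69 (0.70 without Organic-UVR replicate 1), as a description over arrays that share groups and normalisation. Its r with the other clock genes was 0.56 for Tef, 0.44 for Per1, 0.28 for Cry1, -0.15 for Nfil3 and -0.37 for Npas2. Among the members, r with Ciart was next highest for Akr1c14 at 0.57 and lowest for Hsd11b1 at 0.08. With Cry1 it was highest for Hsd11b1, at 0.52. The part of the clock genes in the Akr1c19 values was not tested.

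Akr1c14, the mouse 3-alpha-hydroxysteroid dehydrogenase that reduces dihydrotestosterone, also had its highest group mean in TiO2 + UVR, 10.58 ± 0.30 (SD, n = 6). TiO2 + UVR livers lay between 10.25 and 10.96 (median 10.46), against 9.83 to 10.59 in TiO2-UVR livers (median 10.07), so the ranges overlapped. The difference was 0.42 ± 0.20 log2 units (SE, limma adjusted p 0.654). Organic + UVR livers reached 10.09 to 10.96 and differed from Control-UVR by 0.26 ± 0.20 (adjusted p 0.481). The mean of the TiO2 and organic products with their organic filters, set against the mean of the Control and ZnO groups, differed by 0.13 ± 0.10 (adjusted p 0.452), with 0 of 8 members and 4.94% of transcripts called. It was 0.19 without Organic-UVR replicate 1 (adjusted p 0.23).

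Akr1c13, the aldo-keto reductase that follows Akr1c14 in the order of the members along the chromosome, came nearest to a call. Its values were 7.02 to 8.92 in Organic-UVR livers (median 8.35), against 8.41 to 9.04 in Control-UVR livers (median 8.79). Both groups overlapped, and 1 of the Organic-UVR values, that of replicate 1, lay far under the rest. The means were 8.27 ± 0.65 in Organic-UVR and 8.75 ± 0.31 in Control-UVR (SD, n = 6 each), a limma difference of -0.48 ± 0.17 (SE) with an unadjusted p of 0.00598 and an adjusted p of 0.12. Without Organic-UVR replicate 1 the difference was -0.25 and the adjusted p 0.594. It was called without Organic-UVR replicate 2, 3 or 5 (adjusted p 0.0986, 0.0755 and 0.0725). In this comparison 1 of 3 measured bile duct markers, Krt7, was 0.57 log2 units higher (adjusted p 0.00641, and 0.49 with 0.0314 without that array), and the mean of the 3 ran from 4.76 to 5.35 in Organic-UVR against 4.73 to 5.06 in Control-UVR. Krt7 averaged 4.65 over arrays, under the median of all transcripts at 5.24. Another of the 3, Sox9, was lower in the products with organic filters against the rest (-0.24, limma adjusted p 0.0834). The hepatocyte marker mean ran from 11.61 to 12.29 in Organic-UVR against 12.13 to 12.33 in Control-UVR. The part of these markers in the Akr1c13 values was not tested.

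For Akr1c12, with its near-identical window, the same comparison gave -0.20 ± 0.22 (SE, adjusted p 0.633), and without Organic-UVR replicate 1 it turned to 0.11 (adjusted p 0.898). Organic-UVR livers held 6.69 to 9.28 (median 8.58), against 7.94 to 8.96 in Control-UVR livers (median 8.72). The highest group mean of Akr1c12 was 8.82 ± 0.46 in Organic + UVR and the lowest 8.34 ± 0.16 in Control + UVR (SD, n = 6 each), with ranges of 8.20 to 9.36 and 8.15 to 8.57 that overlapped. That difference of 0.48 ± 0.22 had a limma adjusted p of 0.645, in a comparison with 0.0611% of transcripts called. The interaction of organic sunscreen with UVR was 0.68 ± 0.31 for Akr1c12 (adjusted p 0.659) and 0.55 ± 0.24 for Akr1c13 (adjusted p 0.654), where 0% of transcripts were called. The interactions were 0.37 and 0.32 without Organic-UVR replicate 1 (adjusted p 1.00 in both), and with array weights that of Akr1c13 was 0.25.

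Akr1c6, the mouse 17-beta-hydroxysteroid dehydrogenase of type 5 that forms testosterone, had group means between 11.98 in Organic-UVR and 12.13 in Organic + UVR, and SDs ran from 0.04 in TiO2 + UVR to 0.26 in Organic-UVR. Organic-UVR livers lay between 11.49 and 12.21 (median 12.06), against 11.96 to 12.23 in Control-UVR livers (median 12.16), and overlapped. The difference was -0.15 ± 0.09 (SE, limma adjusted p 0.359), and without Organic-UVR replicate 1 it was -0.04 (adjusted p 0.919). The lowest group mean was then 12.06 in Control + UVR.

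Akr1c20, the last of the 6 aldo-keto reductases along the chromosome, had similar means in all groups. Group means lay between 9.91 ± 0.45 in Organic-UVR and 10.15 ± 0.13 in Organic + UVR (SD, n = 6 each). The difference of Organic-UVR from Control-UVR, whose livers held 9.91 to 10.25, was -0.17 ± 0.15 (SE, adjusted p 0.532). Without Organic-UVR replicate 1 it was -0.0085 (adjusted p 0.993), and the lowest group mean was 10.03 in TiO2-UVR. TiO2 + UVR replicate 4 gave the highest value of the 47 arrays for Akr1c20 and for 3 other members, Akr1c13, Akr1c19 and Hsd11b1.

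Hsd17b6, a dehydrogenase related to the retinol dehydrogenases that oxidises 3-alpha-androstanediol back to dihydrotestosterone, was highest in ZnO-UVR. Those livers held 11.68 to 12.18 (median 11.79), against 11.15 to 11.79 in Control-UVR livers (median 11.67), which overlapped. The difference was 0.27 ± 0.13 log2 units (limma adjusted p 1.00, unadjusted p 0.0527). ZnO + UVR livers lay between 11.47 and 11.77 (median 11.67) and differed from ZnO-UVR by -0.19 ± 0.14, with 0 of 8 members and 0% of transcripts called.

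Hsd11b1 reduces inactive 11-keto glucocorticoids to their active form, and the liver is its main site. Its values were 8.89 to 10.54 in Organic-UVR livers (median 10.29), against 10.17 to 10.55 in Control-UVR livers (median 10.30). The medians were nearly level, and the lower mean of 10.09 ± 0.62 in Organic-UVR, against 10.34 ± 0.17 in Control-UVR (SD, n = 6 each), held replicate 1. The difference was -0.25 ± 0.16 (SE, limma adjusted p 0.385), and -0.04 without that array (adjusted p 0.967). Under UVR with no sunscreen it was 0.01 ± 0.16 (adjusted p 0.992), with a 95% interval of -0.33 to 0.34.

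Over all sunscreens, UVR against no UVR gave differences above 0 for 8 of 8 members, all of them small, from 0.02 for Hsd11b1 to 0.17 ± 0.14 (SE) for Akr1c19, with a median of 0.06 against 0.01 for all transcripts. These signs rested on Organic-UVR replicate 1, without which 4 of 8 were above 0, from -0.04 for Hsd11b1 to 0.13 for Akr1c19, with a median of -0.0022. With array weights 1 of 8 was above 0. None was called (smallest adjusted p 0.818), nor was any of 9815 transcripts (0%). The remaining comparisons, in each of which 0 of 8 members were called, were Organic + UVR against Organic-UVR (0% of transcripts called), ZnO + UVR against Control + UVR (0%), Organic-UVR against TiO2-UVR (0.683%), Organic + UVR against TiO2 + UVR (0%) and the interaction of ZnO sunscreen with UVR (0%). When the 8 group means of a member were put in order, no step between neighbours reached 1 pooled SD. Steps between 8 ordered means can be small even where outer groups differ, so this does not test a difference. For Akr1c19 the outer means lay 0.79 log2 units apart, against a pooled SD of 0.53. The widest step ran from 0.21 of the pooled SD for Akr1c12 to 0.78 for Akr1c19, between TiO2 + UVR and Organic-UVR. Without Organic-UVR replicate 1 the widest steps were 0.20 for Akr1c6 to 0.49 for Akr1c14. Organic-UVR had the largest SD of the 8 groups for 7 members, all but Hsd17b6, and without that array for 2, Akr1c14 and Akr1c19.

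Replicate numbers of the labels separated 3 members, in a test added after the data were seen. The study ran its chips in batches that held 1 chip of each group, and the labels do not say whether the number is that batch. Akr1c12, Akr1c13 and Hsd11b1 were called for the replicate number term (limma adjusted p 0.00575, 0.00262 and 0.00466), 3 of 8 members against 19.3% of all transcripts. Replicate number held 38.7%, 41.4% and 41.5% of their sum of squares, and group held 9.58%, 12.3% and 7.64%.

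For Akr1c12 the arrays numbered 4, 5 and 6 averaged 8.72, 8.92 and 8.91, and those numbered 1, 2 and 3 averaged 8.21, 8.37 and 8.22. For Akr1c13 numbers 4 to 6 averaged 8.76, 8.85 and 8.74, and numbers 1 to 3 averaged 8.33, 8.31 and 8.30. For Hsd11b1 numbers 4 to 6 averaged 10.54, 10.48 and 10.56, and numbers 1 to 3 averaged 10.03, 10.07 and 10.16. So numbers 4 to 6 lay above numbers 1 to 3 in 8 of 8 groups for Akr1c12, 7 of 8 for Akr1c13 and 8 of 8 for Hsd11b1, a split chosen on these values and given without a test. The mean gaps were 0.58, 0.48 and 0.44 log2 units, and 0.51, 0.42 and 0.39 without Organic-UVR replicate 1. Control + UVR had the smallest gap in each, with 0.05 for Akr1c12, -0.05 for Akr1c13 and 0.04 for Hsd11b1. When each array was left out in turn, the adjusted p of the replicate number term stayed at or under 0.015 for Akr1c12, 0.00675 for Akr1c13 and 0.00952 for Hsd11b1. The other 5 members had adjusted p values of 0.378 for Akr1c19 to 0.696 for Akr1c6.

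**Figure D3:**
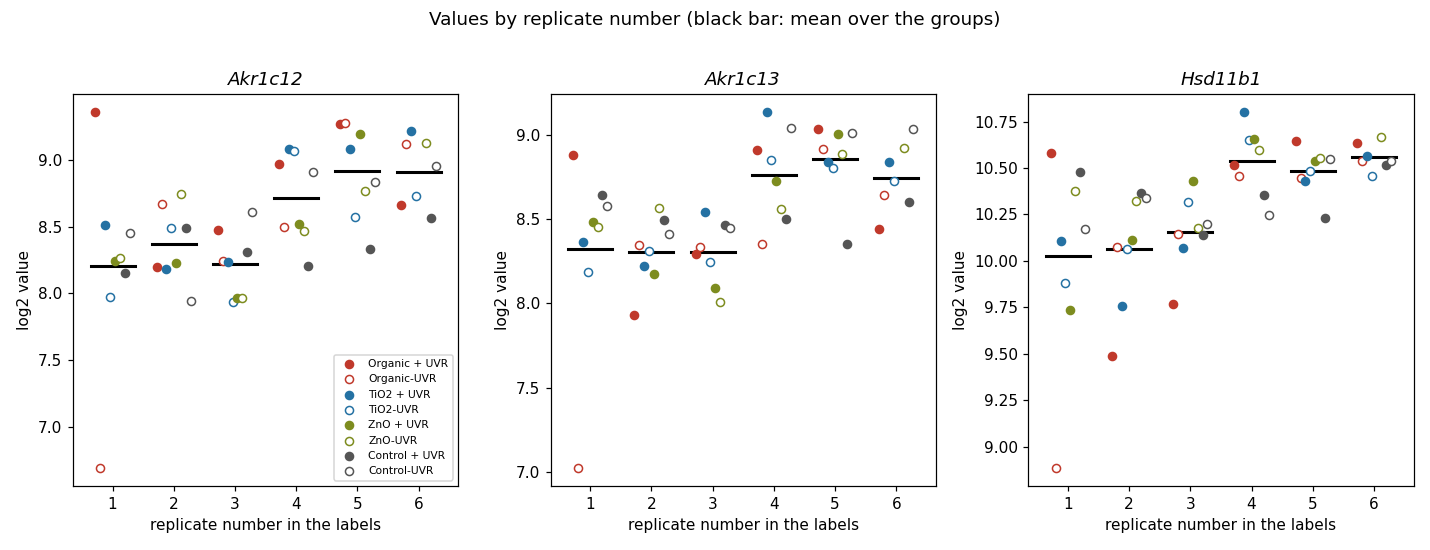
Log2 values of Akr1c12, Akr1c13 and Hsd11b1 (y axis) by the replicate number of the labels (x axis), 1 point per array, filled for groups given UVR and open for groups without, with a black bar for the mean over the groups. The bars of numbers 4, 5 and 6 stand above those of numbers 1, 2 and 3 in each panel, and the lowest point is Organic-UVR replicate 1.

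The log2 values of the members were also set against each other over arrays. Over 47 arrays the 28 pairs had a Pearson r between 0.09 and 0.88 with a median of 0.56, and between 0.02 and 0.82 with a median of 0.38 without Organic-UVR replicate 1. The 15 pairs within the Akr1c cluster had a median of 0.62 (0.45 without that array) and the other 13 pairs 0.46 (0.31). Akr1c12 and Akr1c13 were the most alike pair (0.88, and 0.82 without that array), followed by Akr1c13 with Hsd11b1 (0.81 and 0.71), which lie on different chromosomes. Hsd17b6 was the least like the others. These are descriptions, since arrays share groups, replicate numbers and normalisation.

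**Figure D4:**
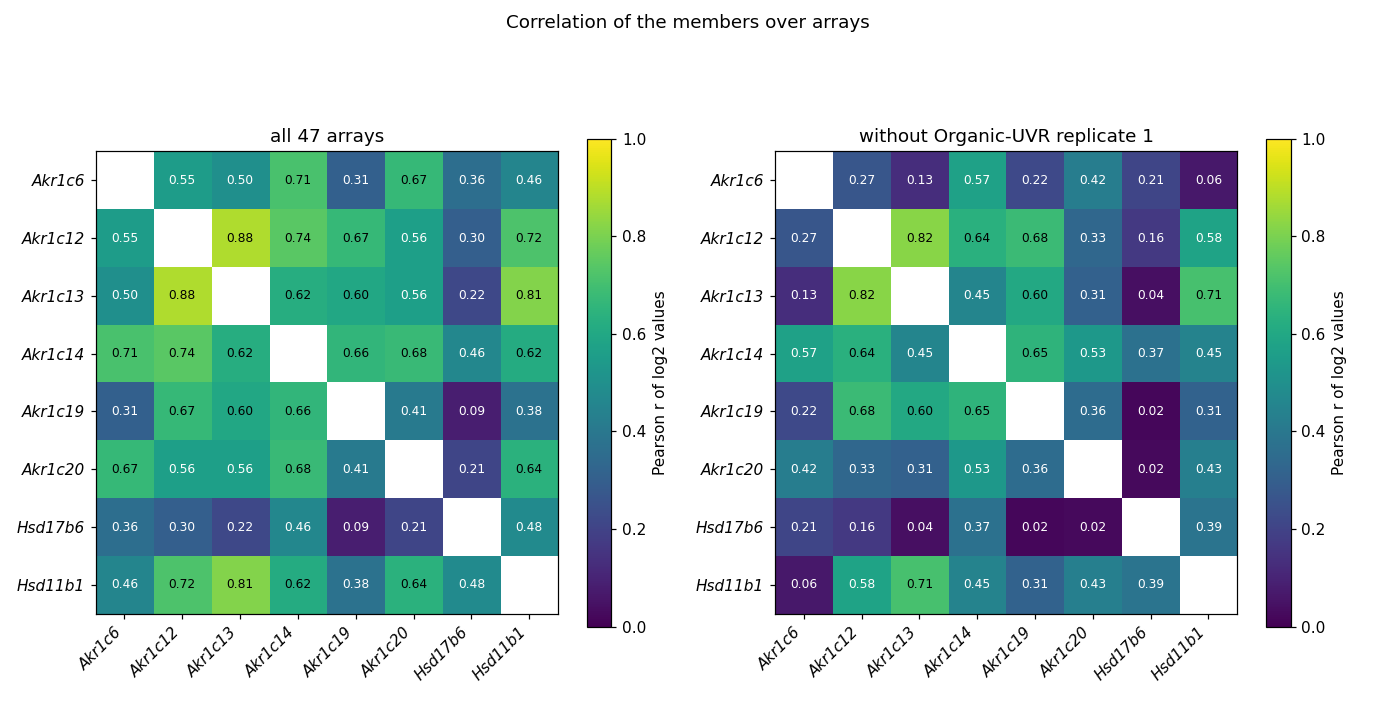
Pearson r between the log2 values of each pair of members over all 47 arrays (left) and without Organic-UVR replicate 1 (right), on a colour scale of 0 to 1. The brightest square is Akr1c12 with Akr1c13 at 0.88, and most squares darken when that array is left out, the median falling to 0.38.

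Beyond the members, each had genes of other kinds with patterns closer to it. The 3 genes of highest r over 47 arrays were Eif4a2 (0.91), Pnpla8 (0.90) and Akr1c13 (0.88) for Akr1c12, and Cct4 (0.91), Rnf130 (0.90) and Atp5pb (0.90) for Akr1c13. For Hsd11b1 they were the ribosomal protein gene Rpl5 (0.93), Apoh (0.89) and the elongation factor gene Eef1b2 (0.89). Those of Akr1c19 were the acyl-CoA thioesterase gene Acot4 (0.78), the glutathione transferase gene Gsta3 (0.78) and Azin1 (0.75), which held at 0.75 to 0.78 without Organic-UVR replicate 1. Those of Akr1c14 were Ppp2r5e (0.82), Slc25a32 (0.81) and Ugp2 (0.80), and those of Akr1c20 were Ranbp2 (0.87), Tomm70a (0.86) and Ube2v2 (0.84). Akr1c6 was most like Lactb2 (0.84), Psme4 (0.82) and Fam91a1 (0.81), and 0.62 to 0.70 remained without that array. Hsd17b6 was most like the genes of the secreted liver proteins Ahsg (0.68), Igfbp2 (0.67) and Fetub (0.66). Without Organic-UVR replicate 1 the r values of the same genes were 0.82 to 0.88 for Akr1c12, 0.86 to 0.89 for Akr1c13 and 0.84 to 0.89 for Hsd11b1. They were 0.74 to 0.76 for Akr1c14, 0.78 to 0.80 for Akr1c20 and 0.62 to 0.66 for Hsd17b6.

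Other genes of steroid metabolism and action were taken from 7 lists with 137 entries, of which 43 were measured. Of these 6, or 14.0%, were called in at least 1 of the 20 comparisons, against 7.24% of all transcripts. Without Organic-UVR replicate 1 the transcripts called in at least 1 comparison rose from 711 to 910 of 9815. The calls given below for Rdh18-ps and Sdr9c7 were then lost, and the list genes were not counted anew. The lists were chosen with earlier results of these data known, so the 14.0% is a description only. Among 4 other aldo-keto reductases of 11 listed none was called, and the smallest p was that of Akr1cl, with -0.27 log2 units in ZnO + UVR against Control + UVR (limma adjusted p 0.815). Among 5 other hydroxysteroid dehydrogenases and reductases of 29 listed none was called either. The smallest p was that of Hsd17b3, which makes testosterone in the testis, with an interaction of organic sunscreen and UVR of -0.86 ± 0.24 (adjusted p 0.598). Of 5 steroid and sterol cytochrome P450s of 19 listed none was called, and the smallest p was that of Cyp11b2, the aldosterone synthase, with 0.36 in Organic + UVR against Control-UVR (adjusted p 0.194).

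Hsd17b6 lies in a cluster of retinol dehydrogenases, and 10 of 10 listed neighbours were measured. Of these, 1 was higher and 1 was lower. Rdh18-ps, a retinol dehydrogenase pseudogene, was 0.88 ± 0.23 higher in Organic-UVR against Control-UVR (limma adjusted p 0.0407, in a comparison with 3.27% of transcripts called, median of the list -0.09 against 0.03 for all transcripts). It was 0.74 without Organic-UVR replicate 1 and then missed the threshold (adjusted p 0.217). Its difference in ZnO-UVR was also 0.88 ± 0.23 and missed the threshold (adjusted p 1.00) in a comparison where no transcript passed. Sdr9c7, a dehydrogenase of the epidermal barrier, was lower, with a difference of -0.32 ± 0.10, in the products with organic filters against the rest (adjusted p 0.0853, 4.94% of transcripts called, list median -0.03 against 0.02), and it was -0.30 without that array, no longer called (adjusted p 0.129).

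Of 5 measured genes of steroid conjugation and transport among 29 listed, 1 was called. Serpina6, which encodes the corticosteroid-binding globulin of plasma, was 0.47 ± 0.12 higher in TiO2 + UVR against Control + UVR (limma adjusted p 0.061, 0.703% of transcripts called). Its difference in Organic + UVR against Control + UVR was similar, 0.45 ± 0.12, but missed the threshold (adjusted p 0.157, 0.0611% of transcripts called). Of 9 measured receptors and partners among 21 listed, 1 was called, Esr2, the oestrogen receptor beta, with 0.20 ± 0.06 in the products with organic filters against the rest (adjusted p 0.0663, 4.94% of transcripts called, list median -0.06 against 0.02). It stayed called without Organic-UVR replicate 1 (0.17, adjusted p 0.0958). Of 5 measured glucocorticoid-responsive genes among 18 listed, 2 were called. Per1, which is also a clock gene, was higher in 5 comparisons, by 0.99 ± 0.19 in Organic-UVR against TiO2-UVR (adjusted p 0.0044, 0.683% of transcripts called) and by 1.11 without Organic-UVR replicate 1. G6pc, the glucose-6-phosphatase of gluconeogenesis, was lower, with a difference of -0.80 ± 0.23, in the products with organic filters (adjusted p 0.0489, 4.94% of transcripts called), and was -0.66 without that array (adjusted p 0.0663). The list median there was -0.17 against 0.02 for all transcripts.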

How the data were processed

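Affymetrix Mouse Gene 1.0 ST arrays were hybridised with liver RNA of 47 mice (8 groups). Robust multi-array average (RMA), named in the processing notes of the submitters, gave the log2 values that the authors deposited. Batch effects were removed in the study, and whether the deposited values had this step is not given in the sources used here. The table holds 16383 probesets, of which 6568 control probesets were left out. The other 9815 transcripts are a part of the array. Symbols came from the platform annotation, and 7421 of 7450 transcripts with 1 symbol matched RefSeq (GRCm38.p6).

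limma 3.58.1 in R 4.3.3 fitted all arrays with group and replicate number as terms (34 residual degrees of freedom), so differences are adjusted for replicate number. Adjusted p-values are Benjamini-Hochberg over 9815 transcripts, called under 0.1. Scripts were tested on simulated data. Named were all members, called genes of each list (at most 3, or else the smallest p), and for each member the 3 genes of highest r. The members and lists were chosen with earlier results of these data known. Alternatives were no replicate block, compared arrays alone, quantile normalisation, array weights, a filter on dim transcripts, array slope as a covariate, a threshold of 0.05 and leaving out arrays. The number of arrays limits the precision.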

Additional observations from a re-analysis of the deposited data

Results flagged for a closer look

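Of 64 sets of 1 member in 1 group, 6 held an array that stood apart from the others of its group by Dixon's test, against 3.2 expected where chance flags 1 set in 20. Organic-UVR replicate 1 gave 3 of the 6. Its log2 value was 7.02 for Akr1c13, where the next lowest array of the group held 8.33, 9.05 for Akr1c20 with 9.90 next, and 8.89 for Hsd11b1 with 10.07 next. Against the mean of the other 5 arrays of its group this array differed by -0.58 log2 units for Hsd17b6 and by -2.07 for Akr1c12, the ends of the range over the 8 members. The other arrays that stood apart were TiO2-UVR replicate 2, high for Akr1c6 at 12.19 with 12.09 next, Control + UVR replicate 1, low for Hsd17b6 at 11.59 with 11.75 next, and TiO2-UVR replicate 1, low for Hsd17b6 at 11.09 with 11.60 next.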

How the results depend on the processing

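In the main fit 0 of 160 member differences passed the threshold, and those that passed under an alternative had the sign of the main fit. Of 3952 values of member differences under alternatives 332 had the opposite sign, 219 of them among 2736 with 1 array left out, 37 of 160 with array slope as a covariate, 31 of 160 with array weights and 28 of 160 after quantile normalisation. The 3952 include 160 values at the threshold of 0.05 and 160 with the filter on dim transcripts, settings that cannot turn a sign. The count of members called was 0 in each comparison and became 1 in these cases. With the compared arrays alone it was 1 (Akr1c19) in TiO2 + UVR against TiO2-UVR, in TiO2 + UVR against Control-UVR (adjusted p 0.0546) and in the TiO2 interaction (0.0929). With array weights it was 1 in Organic-UVR against TiO2-UVR (Akr1c19, 0.78 log2 units, adjusted p 0.0505) and 1 in the F test over the 8 groups. With dim transcripts left out it was 1 in Organic-UVR against Control-UVR (Akr1c13, adjusted p 0.0772), where leaving out 1 array gave 0 to 1. With array slope as a covariate it was 1 in the products with organic filters against the rest (Akr1c14, 0.27, adjusted p 0.0856). Array weights also moved Organic + UVR against Organic-UVR to -0.05 for Akr1c12, -0.03 for Akr1c13, -0.11 for Akr1c14 and -0.70 for Akr1c19, against 0.41, 0.31, 0.26 and -0.01 with equal weights. They moved the organic interaction to 0.25 for Akr1c13 and -0.60 for Akr1c19, against 0.55 and 0.07. The cause was not tested.

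Without the replicate block the count stayed at 0 in each comparison. Arrays of the same number in different groups had a mean correlation of deviations of 0.15, against -0.03 for different numbers, and the lowest of 161 pairs was -0.51. These values do not show whether a number pairs every array. Akr1c12, Akr1c13 and Hsd11b1 remained called for the replicate number without Organic-UVR replicate 1, after quantile normalisation and with array slope as a covariate (highest adjusted p 0.0319). Averaging several probesets of a gene gave no value, since each member has 1.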
